A study of Mus musculus with 16 samples.

Results

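Levels of 8 genes of the fibroblast growth factor (FGF) system were measured by single-cell RNA-Seq in cultured bone marrow stromal cells of 4 mouse genotypes. The 8 genes were chosen by name, and they are 8 of the 32285 genes counted: the receptors *Fgfr1*, *Fgfr2* and *Fgfr3*, the receptor-like *Fgfrl1*, and the family members *Fgf2*, *Fgf7*, *Fgf13* and *Fgf18*. The comparisons address which stromal and myeloid cells carry each gene and how its level per culture differs between genotypes. The study compared mice that lack dentin matrix protein 1 (*Dmp1*), a model of hypophosphatemic rickets with excess of the bone hormone FGF23, with mice in which *Fgf23* was deleted in bone cells.

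The WT group was *Dmp1*+/+ *Fgf23*fl/fl without Cre, and the Fgf23cKO group carried the same alleles with *Dmp1*-Cre. The Dmp1KO group was *Dmp1*-/- *Fgf23*fl/fl without Cre, and the Dmp1KO/Fgf23cKO group was *Dmp1*-/- *Fgf23*fl/fl with *Dmp1*-Cre. All groups therefore carried floxed *Fgf23*, and *Dmp1*-Cre drives recombination in mature osteoblasts and osteocytes, so stromal cells at earlier stages keep the gene. Marrow of 12-week-old mice was cultured for 21 days with 10 mM β-glycerophosphate, and 3 cultures per genotype were tagged and run in a single droplet reaction per genotype. Genotype can therefore not be told apart from reaction. Cells of the same pool without a tag form 1 more sample of each genotype, which served to define cell classes and not to test genotypes. The counts of the first Dmp1KO culture were not analysed here, which left 2 tagged Dmp1KO cultures and 3 of every other genotype.

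The 15 samples held 17793 cells. Tagged samples held 9518928 to 72482185 unique molecular identifiers (UMIs), and the median per cell was 7137 to 7275.5 UMIs in WT, 29752.5 to 34988 in Fgf23cKO, 20016.5 to 22186 in Dmp1KO and 32378 to 33881 in Dmp1KO/Fgf23cKO. No barcode was shared by 2 samples of a genotype (0 over 21 pairs), and 35 were shared over the 84 pairs of samples of different genotypes. *Dmp1* had 27.3 to 108 CPM (counts per 1000000 UMIs) in WT cultures, 7.55 to 65.0 in Fgf23cKO, 0 to 0.0477 in Dmp1KO and 1.32 to 2.16 in Dmp1KO/Fgf23cKO. *Fgf23* had at most 8 UMIs in a sample, so its deletion cannot be checked in these data.

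FGF receptors are cell surface tyrosine kinases that dimerize when an FGF ligand and heparan sulfate bind together, and they signal through the adaptor FRS2 to the RAS/ERK and PI3K/AKT pathways. Most FGFs act locally, bound to heparan sulfate of the matrix, whereas FGF23 is a hormone that needs the coreceptor Klotho for high-affinity binding. In bone, FGFR1 is carried by cells throughout the osteoblast lineage, FGFR2 promotes the growth of osteoprogenitors and FGFR3 restrains growth plate chondrocytes. FGFRL1 binds FGFs but has no kinase domain. FGF2 is a mitogen of stromal cells, FGF7 is a mesenchymal ligand that acts on the epithelial splice form of FGFR2, FGF18 takes part in ossification, and FGF13 is an intracellular member of the family that binds sodium channels and microtubules and does not act as a classic receptor ligand.

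On mm10, with gene models of GENCODE M21, *Fgfr1* lies at chr8:25513654-25575718 on the plus strand and *Fgfr3* at chr5:33721674-33737068 on the plus strand. *Fgfrl1* lies at chr5:108692382-108706924, *Fgf2* at chr3:37348346-37410108 and *Fgf7* at chr2:126034658-126091185, all on the plus strand. *Fgf13* lies at chrX:59062145-59568071 and *Fgf18* at chr11:33117430-33147400, both on the minus strand. All 8 are protein-coding genes, and the counts cover whole genes, not single exons or splice forms. *Fgfr2* lies on the minus strand and starts at chr7:130162451 at its low end. Of its 27 annotated transcripts, 26 end by position 130266263, a span of 103.8 kb, and 1 reaches 133123350, a span of 2960.9 kb. The longer span overlaps 69 other annotated genes, of which only a part is among the genes counted. Whether that transcript was in the reference used for counting, and whether intronic reads were counted, is not stated in the sources used here, so an *Fgfr2* count may hold reads from outside the shorter span.

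Cells were grouped by clustering with the members and the other FGF family genes left out of the variable genes, so that no member defined the class in which it is measured. The stromal classes were 422 pre-osteoblast 1-like cells (led by *Pappa*, *Timp3* and *Col3a1*), 706 osteoprogenitor-like cells (led by *Grem1*, *Mgp* and *Tagln*) and 535 osteoblast/osteocyte-like cells (2 clusters led by *Slpi* and *Ibsp*). Most cells carried macrophage markers: 7280 macrophage-like cells in 4 clusters and 4421 cells in 4 further clusters, here called the Dmp1KO-rich macrophage-marker clusters because 81.5 to 95.6% of their cells came from Dmp1KO. A further 1215 cells in 2 clusters were cycling-like, 341 cells were osteoclast-like and 2873 cells in 5 clusters were left unnamed. All 12 macrophage markers were each found in over 25% of cells of both cycling-like clusters. By this measure 11 of 12 were found in the pre-osteoblast 1-like and the osteoclast-like cluster, 9 and 11 in the osteoblast/osteocyte-like clusters and 6 in osteoprogenitor-like cells. Median depth differed widely, from 1886 UMIs per cell in osteoblast/osteocyte-like and 2884 in osteoprogenitor-like cells to 52289 in pre-osteoblast 1-like cells.

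The receptors and ligands of the stroma were concentrated in few cells. Pre-osteoblast 1-like cells held 8.02% of all UMIs but 64.5% of the *Fgfr1*, 65.1% of the *Fgfr3*, 48.9% of the *Fgfrl1*, 61.5% of the *Fgf2* and 81.9% of the *Fgf7* UMIs. The macrophage-marker clusters together held 69.9% of all UMIs, and they held 57.4% of the *Fgfr2* and 84.6% of the *Fgf13* UMIs. *Fgfr2* and *Fgf13* were thus the members whose UMIs came mostly from myeloid cells in these cultures. These shares are a description, since all cells of the series were clustered together, and in them the number of cells of a type and the RNA per cell cannot be told apart.

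**Figure D1:**
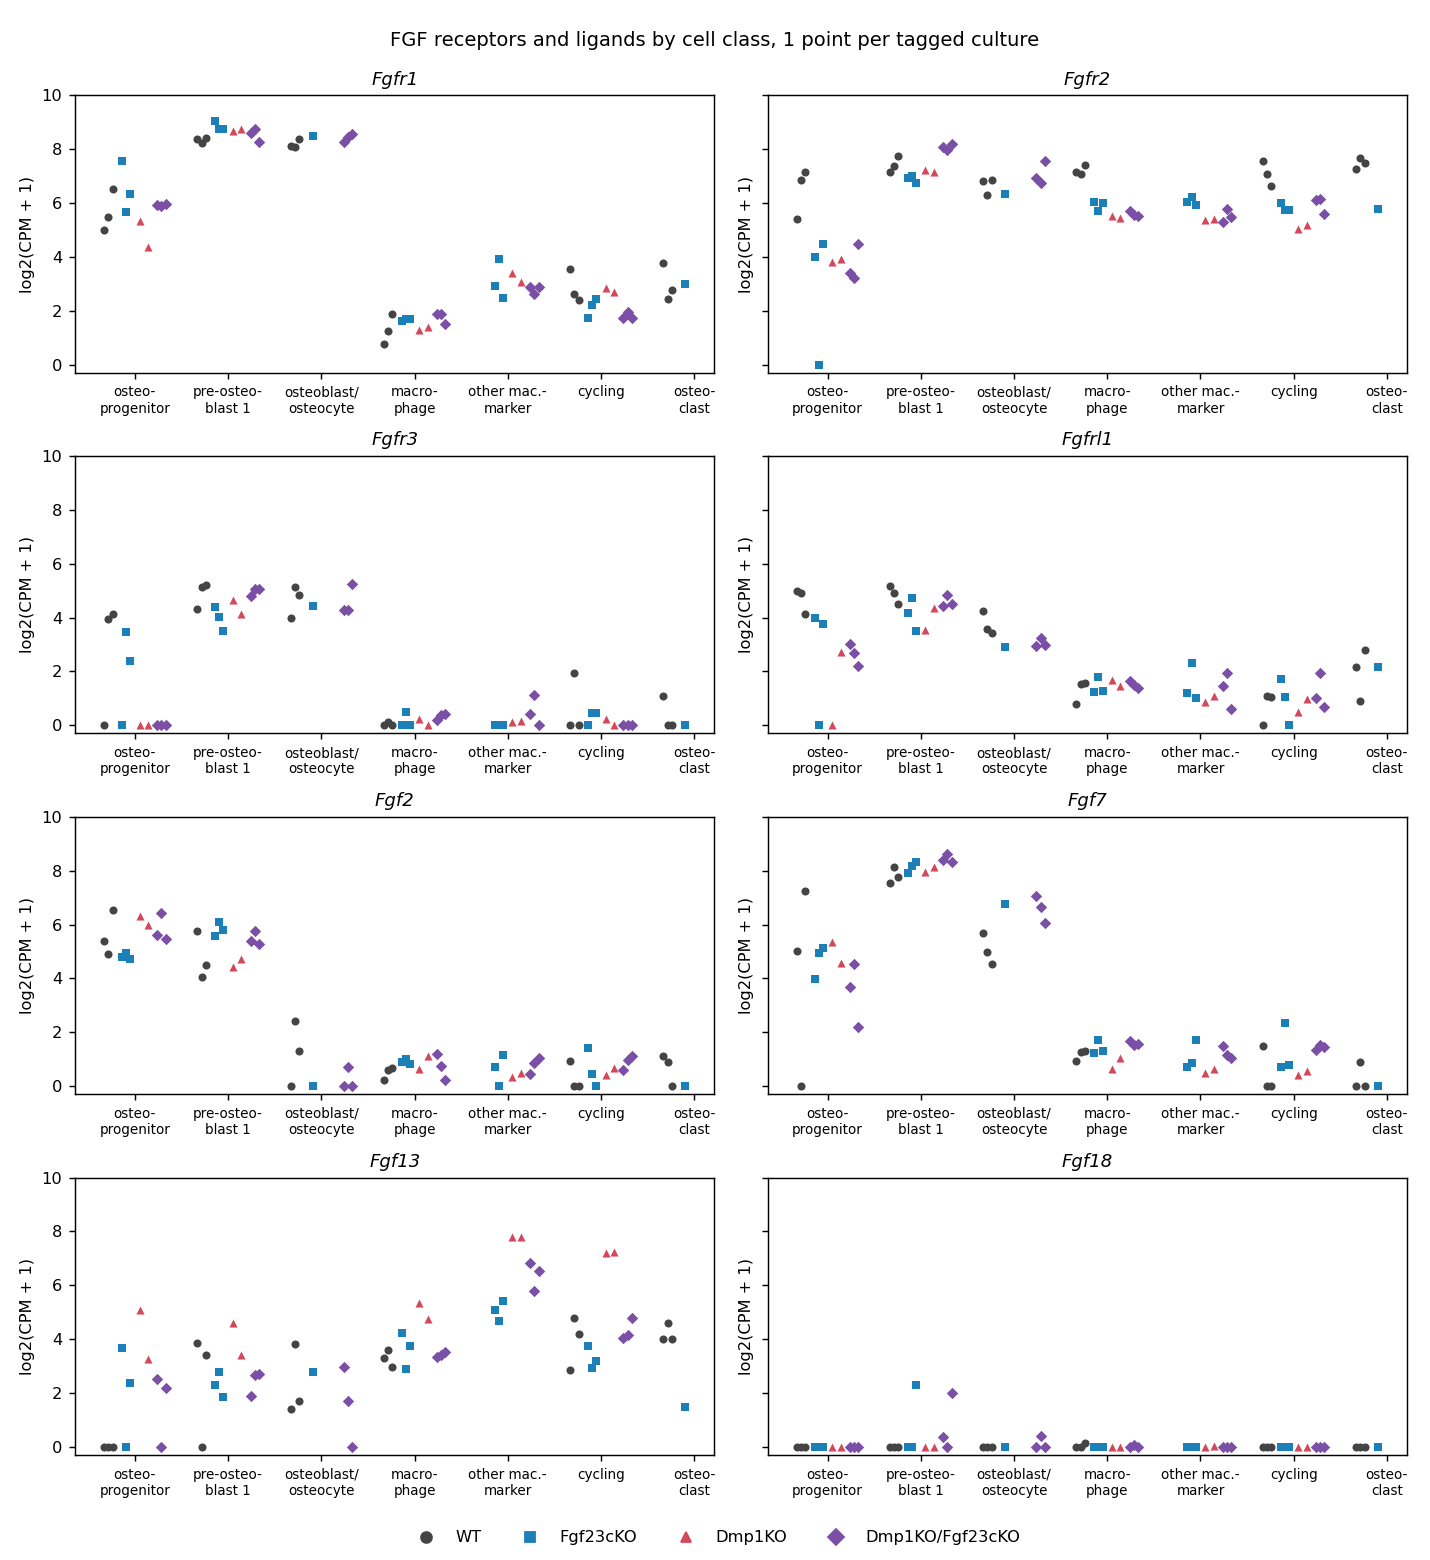
Level of each of the 8 members (panels, log2(CPM + 1)) by cell class, with a point for each tagged culture that holds at least 10 cells of the class, colored by genotype. *Fgfr1*, *Fgfr3*, *Fgf7* and *Fgfrl1* sit highest in pre-osteoblast 1-like or osteoblast/osteocyte-like cells, *Fgfr2* is spread over stromal and myeloid classes, and *Fgf13* sits highest in Dmp1KO cultures of the macrophage-marker clusters.

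Among the receptors, *Fgfr1* had a median of 410.1 CPM in pre-osteoblast 1-like cells (range 299.6 to 530.5 over 11 tagged cultures), 333 CPM in osteoblast/osteocyte-like cells (270.4 to 379 over 7 cultures), 57.6 CPM in osteoprogenitor-like cells (19.8 to 190.2) and 2.10 CPM in macrophage-like cells (0.712 to 2.69). The ranges of the first and second of these classes overlap, and both lie above all cultures of the other classes. A UMI of *Fgfr1* was found in 96.7% of pre-osteoblast 1-like cells (95% exact interval 94.5 to 98.2%) and in 3.85% of macrophage-like cells (3.42 to 4.31%), and after cells were thinned to 1300 UMIs the shares were 37.4% and 0.248%. *Fgfr3* had a median of 24.1 CPM in pre-osteoblast 1-like cells (10.4 to 35.7), 20.8 CPM in osteoblast/osteocyte-like cells (14.9 to 37.0), 0 CPM in osteoprogenitor-like cells (0 to 16.7, from 5 UMIs) and 0.0875 CPM in macrophage-like cells (0 to 0.410). The 3 stromal ranges of *Fgfr3* overlap, and the pre-osteoblast and osteoblast ranges lie above the macrophage-like range. *Fgfrl1* had a median of 21.6 CPM in pre-osteoblast 1-like cells (10.4 to 35.1), 8.42 CPM in osteoblast/osteocyte-like cells (6.53 to 18.2), 7.14 CPM in osteoprogenitor-like cells (0 to 31.1) and 1.83 CPM in macrophage-like cells (0.712 to 2.46). Its stromal ranges overlap, so the order among stromal classes is within the spread of the cultures.

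*Fgfr2* was the receptor with a measurable level in nearly every class. Its median was 149.6 CPM in pre-osteoblast 1-like cells (107 to 288), 110.5 CPM in osteoblast/osteocyte-like cells (77.9 to 186), 165 CPM in osteoclast-like cells (54.5 to 203 over 4 cultures), 51.1 CPM in macrophage-like cells (42.6 to 171) and 14.9 CPM in osteoprogenitor-like cells (0 to 142). The ranges of these classes overlap. A UMI of *Fgfr2* was found in 94.3% of pre-osteoblast 1-like cells (91.7 to 96.3%) and in 56.0% of macrophage-like cells (54.9 to 57.2%), and in 19.7% and 9.42% of them after thinning. The ratio between both receptors was not the same in these classes: *Fgfr1* had 12537 UMIs in pre-osteoblast 1-like and 317 in macrophage-like cells, while *Fgfr2* had 5618 and 10380.

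Among the ligands, *Fgf7* had a median of 284 CPM in pre-osteoblast 1-like cells (186 to 396), 65.9 CPM in osteoblast/osteocyte-like cells (22.4 to 131), 22.6 CPM in osteoprogenitor-like cells (0 to 151) and 1.48 CPM in macrophage-like cells (0.547 to 2.26). The pre-osteoblast cultures all lay above those of the other classes. *Fgf2* was distributed differently: its median was 40.8 CPM in pre-osteoblast 1-like (15.8 to 67.5) and 42.9 CPM in osteoprogenitor-like cells (25.4 to 92.0), whereas in osteoblast/osteocyte-like cells it was 0 CPM (0 to 4.33). The first and second of these ranges overlap, and neither overlaps the range in osteoblast/osteocyte-like cells, where *Fgf2* had 14 UMIs among 14050960. *Fgf2* was also present in a small unnamed cluster of 116 cells led by *Tenm3*, *Csmd1* and *Apod*, with 77.0 and 106 CPM in 2 WT cultures and 142 CPM in an Fgf23cKO culture. *Fgf18* was close to absent at this depth, with 31 UMIs in the whole series, 22 of them in pre-osteoblast 1-like cells.

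*Fgf13* had most of its UMIs in classes with macrophage markers. The median over cultures was 10.4 CPM in macrophage-like cells (6.46 to 40.0), 17.03 CPM in cycling-like cells (6.21 to 149) and 73.1 CPM in the Dmp1KO-rich macrophage-marker clusters (24.6 to 222 over 8 cultures), against 5.54 CPM in pre-osteoblast 1-like cells (0 to 23.5). In osteoclast-like cells the median was 15.1 CPM (1.76 to 22.9 over 4 cultures). Most of these ranges overlap. A UMI of *Fgf13* was found in 58.9% of cells of the Dmp1KO-rich clusters (57.4 to 60.3%, median 23757 UMIs per cell) and in 7.06% of macrophage-like cells (6.48 to 7.67%, median 12967), and in 16.9% and 1.05% of them after thinning. In cluster 8, 1 of the Dmp1KO-rich clusters, *Fgf13* was the leading gene although it was left out of the clustering, with 361 and 364 CPM in Dmp1KO, 137 and 195 CPM in Dmp1KO/Fgf23cKO and 90.9 CPM in an Fgf23cKO culture. Cluster 2, led by *Itgax*, *Mmp12* and *Mfge8*, held 34.6% and cluster 8 30.5% of all *Fgf13* UMIs.

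Genotypes were first compared over all cells of a culture, where the share of stromal cells and the level per cell are joined. Counts were summed per tagged culture and tested with edgeR's quasi-likelihood test, and a gene was called at a Benjamini-Hochberg adjusted p under 0.1 over all genes tested. *Fgf18* did not pass the filter on low counts, so 7 of the 8 members were tested. In Dmp1KO compared with WT, 5 of 7 were called (1 higher, 4 lower) against 64.5% of all 15502 genes tested. In Fgf23cKO compared with WT, 3 of 7 were called (2 higher, 1 lower) against 45.1% of genes, and in Dmp1KO/Fgf23cKO compared with WT 3 of 7 (2 higher, 1 lower) against 51.8%. In Dmp1KO/Fgf23cKO compared with Dmp1KO all 7 tested members were called (6 higher, 1 lower) against 62.7% of genes. The comparisons with WT share the WT cultures, and with shares this large the counts say little of the members, so their values are given one by one.

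*Fgf13* had 10.5, 13.9 and 9.57 CPM in the WT cultures, 14.1, 7.34 and 16.3 in Fgf23cKO, 190.0 and 172 in Dmp1KO, and 18.1, 12.1 and 18.97 in Dmp1KO/Fgf23cKO. Both Dmp1KO cultures lay far above all 9 others, which overlapped. The log2 fold change was 4.29 ± 0.29 (SE) in Dmp1KO compared with WT (adjusted p = 1.02e-06, edgeR), and *Fgf13* fell by 3.84 ± 0.27 in Dmp1KO/Fgf23cKO compared with Dmp1KO (adjusted p = 2.34e-06). In fold terms these are 19.6-fold and 14.3-fold. Both calls were kept under all 19 alternatives tried.

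*Fgfr2* had 144, 139 and 157 CPM in WT, 71.6, 61.4 and 67.9 in Fgf23cKO, 41.6 and 44.4 in Dmp1KO, and 74.7, 74.1 and 80.0 in Dmp1KO/Fgf23cKO. The WT cultures were highest and the Dmp1KO cultures lowest, and neither group overlapped another. *Fgfr2* fell by 1.47 ± 0.08 on the log2 scale in Dmp1KO (adjusted p = 2.98e-07), by 1.17 ± 0.07 in Fgf23cKO (adjusted p = 2.79e-06) and by 1.01 ± 0.07 in Dmp1KO/Fgf23cKO (adjusted p = 2.15e-06), each compared with WT. It was 0.46 ± 0.08 higher in Dmp1KO/Fgf23cKO than in Dmp1KO (adjusted p = 5.07e-04), a call that was lost when cells were thinned to 1300 UMIs (0.26, adjusted p = 0.2725).

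The other members have most of their UMIs in the stroma. *Fgf7* had 19.1, 9.27 and 16.2 CPM in WT, 41.0, 39.1 and 33.2 in Fgf23cKO, 6.46 and 12.1 in Dmp1KO, and 38.9, 52.0 and 42.1 in Dmp1KO/Fgf23cKO. All cultures with the *Fgf23* deletion lay above all cultures without it, and WT and Dmp1KO overlapped. *Fgf7* rose in Fgf23cKO compared with WT (1.33 ± 0.26, adjusted p = 0.00292), in Dmp1KO/Fgf23cKO compared with WT (1.54 ± 0.26, adjusted p = 8.83e-04) and in Dmp1KO/Fgf23cKO compared with Dmp1KO (1.91 ± 0.29, adjusted p = 2.98e-04), of which the first was lost when cells were thinned to 1300 UMIs (0.85, adjusted p = 0.130). In Dmp1KO compared with WT the difference of -0.37 did not pass (adjusted p = 0.302), except without Dmp1KO replicate 3 (-0.80, adjusted p = 0.0563) or WT replicate 2 (-0.60, adjusted p = 0.0691). *Fgf2*, the stromal mitogen, had 5.57, 2.23 and 3.60 CPM in WT, 10.8, 11.4 and 12.7 in Fgf23cKO, 1.10 and 1.81 in Dmp1KO, and 5.71, 7.01 and 5.54 in Dmp1KO/Fgf23cKO. Fgf23cKO was highest and Dmp1KO lowest without overlap, and a Dmp1KO/Fgf23cKO culture fell within the WT range. *Fgf2* rose in Fgf23cKO compared with WT (1.62 ± 0.27, adjusted p = 0.00114) and in Dmp1KO/Fgf23cKO compared with Dmp1KO (1.71 ± 0.30, adjusted p = 7.89e-04). The smaller changes of *Fgf2*, 0.67 ± 0.27 in Dmp1KO/Fgf23cKO (adjusted p = 0.0680) and -1.04 ± 0.31 in Dmp1KO (adjusted p = 0.0156) compared with WT, were lost in some alternatives. Without Dmp1KO replicate 2 the second was -0.70 (adjusted p = 0.155) and with the untagged samples included -0.35 (adjusted p = 0.565), and the first was lost without WT replicate 2 (0.40, adjusted p = 0.214), WT replicate 3 (0.66, adjusted p = 0.148) or Dmp1KO/Fgf23cKO replicate 2 (0.55, adjusted p = 0.187).

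*Fgfr3* had 2.63, 2.29 and 4.39 CPM in WT, 4.33, 2.43 and 1.14 in Fgf23cKO, 0.8002 and 0.779 in Dmp1KO, and 3.44, 5.51 and 5.70 in Dmp1KO/Fgf23cKO. Both Dmp1KO cultures lay below all others, and *Fgfr3* fell by 1.68 ± 0.49 compared with WT (adjusted p = 0.0139) and was 2.25 ± 0.48 higher in Dmp1KO/Fgf23cKO than in Dmp1KO (adjusted p = 0.00273). *Fgfrl1* had 5.15, 2.72 and 4.08 CPM in WT, 4.33, 5.41 and 2.48 in Fgf23cKO, 1.10 and 1.94 in Dmp1KO, and 3.89, 5.45 and 4.12 in Dmp1KO/Fgf23cKO, again with both Dmp1KO cultures below all others. *Fgfrl1* fell by 1.07 ± 0.36 in Dmp1KO compared with WT (adjusted p = 0.0276) and was 1.21 ± 0.35 higher in Dmp1KO/Fgf23cKO than in Dmp1KO (adjusted p = 0.0143), but without Dmp1KO replicate 2 these were -0.70 (adjusted p = 0.223) and 0.85 (adjusted p = 0.145). *Fgfr1* had 47.9, 18.3 and 50.5 CPM in WT, 104, 75.1 and 39.1 in Fgf23cKO, 18.2 and 24.1 in Dmp1KO, and 52.3, 81.9 and 56.1 in Dmp1KO/Fgf23cKO. WT and Dmp1KO cultures overlapped, and only Dmp1KO/Fgf23cKO compared with Dmp1KO passed the test for *Fgfr1* (1.23 ± 0.44, adjusted p = 0.0370), a call lost without Dmp1KO replicate 2 (1.04, adjusted p = 0.1996) or Dmp1KO/Fgf23cKO replicate 2 (0.99, adjusted p = 0.107). Compared with WT, *Fgfr1* passed in some alternatives, in Fgf23cKO without its replicate 3 (1.17, adjusted p = 0.0319) or WT replicate 3 (1.15, adjusted p = 0.0928) and in Dmp1KO without WT replicate 2 (-0.89, adjusted p = 0.0678), or, in Dmp1KO/Fgf23cKO, with thinned cells (0.82, adjusted p = 0.0328).

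The share of UMIs from these stromal classes also varied between genotypes. Pre-osteoblast 1-like cells gave 2.35 to 7.78% of the UMIs of WT cultures, 7.64 to 12.8% in Fgf23cKO, 2.35 to 3.78% in Dmp1KO and 9.60 to 11.9% in Dmp1KO/Fgf23cKO, and osteoblast/osteocyte-like cells gave 0.142 to 0.455% in Dmp1KO and 0.882 to 9.89% elsewhere. As a share of cells, pre-osteoblast 1-like cells were 0.906 to 3.32%, 2.22 to 3.73%, 1.17 to 1.55% and 3.10 to 3.98% in the same order. In a culture total, fewer cells of a type and less RNA per cell cannot be told apart. The members were therefore compared within classes, with counts summed per culture over at least 10 cells.

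Within macrophage-like cells, *Fgfr2* had 141, 134 and 171 CPM in WT, 64.1, 51.1 and 63.5 in Fgf23cKO, 44.4 and 42.6 in Dmp1KO, and 50.5, 45.5 and 44.7 in Dmp1KO/Fgf23cKO. The 3 WT cultures lay above all 8 others. *Fgfr2* fell by 1.81 ± 0.11 in Dmp1KO (adjusted p = 9.66e-10), by 1.36 ± 0.09 in Fgf23cKO (adjusted p = 2.51e-09) and by 1.71 ± 0.09 in Dmp1KO/Fgf23cKO (adjusted p = 3.48e-11) compared with WT, and these calls were kept under all 25 alternatives. Between Dmp1KO/Fgf23cKO and Dmp1KO the difference was 0.10 ± 0.12 (adjusted p = 0.623). The WT cells of this class came mostly from cluster 0, 97.9% of whose cells are WT, and those of the other genotypes mostly from cluster 1, and the part of this in the difference was not tested. In cluster 3, which holds cells of all genotypes, *Fgfr2* fell by 1.86 ± 0.25 in Dmp1KO compared with WT (adjusted p = 1.63e-05), from 139, 109 and 181 to 42.7 and 41.4 CPM. In cycling cluster 10, *Fgfr2* fell by 1.85 ± 0.27 (adjusted p = 3.61e-05) and in cycling cluster 12 by 1.70 ± 0.25 (adjusted p = 6.24e-05). In the class as a whole, 2 of 6 tested members were called in Dmp1KO against 51.0% of 12786 genes, 1 in Fgf23cKO against 49.0% and 1 in Dmp1KO/Fgf23cKO against 58.1%, each compared with WT, and 2 of 6 in Dmp1KO/Fgf23cKO compared with Dmp1KO against 24.1%. The nuclear RNA *Malat1* moved with *Fgfr2*, at 24113 to 25283 CPM in WT and 11762 to 15432 CPM in the other macrophage-like cultures, whereas *Neat1*, also nuclear, was 359 to 386 CPM in WT and 521 to 686 CPM in the others. Their part in the *Fgfr2* difference was not tested.

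**Figure D2:**
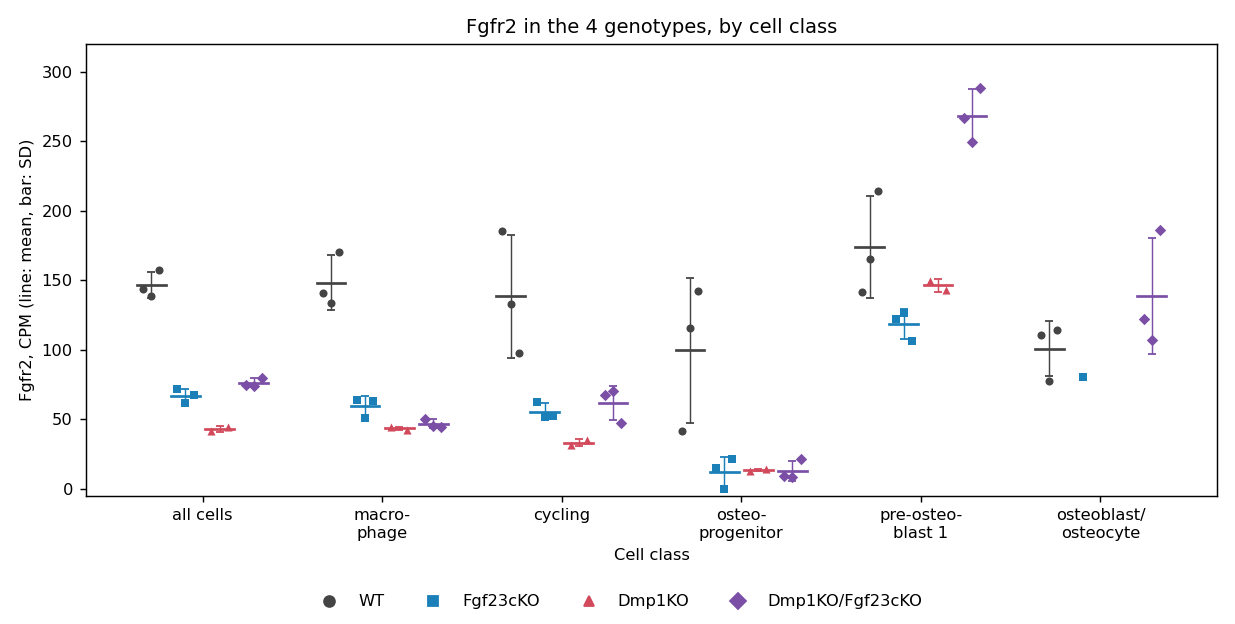
CPM of *Fgfr2* in each tagged culture with at least 10 cells (points; lines mark group means and bars SD) by genotype, over all cells and in 5 cell classes. In macrophage-like cells the 3 WT cultures sit between 134 and 171 CPM, above all others, whereas in pre-osteoblast 1-like cells the Dmp1KO/Fgf23cKO cultures sit highest, between 249 and 288 CPM.

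In pre-osteoblast 1-like cells *Fgfr2* had 142, 166 and 214 CPM in WT, 122, 127 and 107 in Fgf23cKO, 149.6 and 143 in Dmp1KO, and 267, 249 and 288 in Dmp1KO/Fgf23cKO. The Dmp1KO/Fgf23cKO cultures were highest and the Fgf23cKO cultures lowest without overlap, and Dmp1KO lay within the WT range. *Fgfr2* rose by 0.60 ± 0.16 in Dmp1KO/Fgf23cKO compared with WT (adjusted p = 0.0339) and by 0.84 ± 0.17 compared with Dmp1KO (adjusted p = 0.0760), and fell by 0.53 ± 0.16 in Fgf23cKO compared with WT (adjusted p = 0.0760). In Dmp1KO compared with WT the difference was -0.24 ± 0.18 (adjusted p = 0.463). These calls lie near the threshold: the first was lost without WT replicate 1 (0.45, adjusted p = 0.132), when cells were thinned to 1300 UMIs (0.82, adjusted p = 0.201), and when the untagged samples were included (0.29, adjusted p = 0.387). The second was lost without any of the 5 cultures compared (0.79 to 0.89, adjusted p = 0.116 to 0.453), and the third was lost in 9 of 24 alternatives, without WT replicate 3 among them (-0.29, adjusted p = 0.288).

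The difference between the classes was tested directly, in a fit of both classes with the culture as a term. The effect on *Fgfr2* in pre-osteoblast 1-like cells exceeded that in macrophage-like cells by 1.61 ± 0.19 for Dmp1KO (adjusted p = 1.12e-04), by 2.28 ± 0.17 for Dmp1KO/Fgf23cKO (adjusted p = 4.74e-07) and by 0.85 ± 0.17 for Fgf23cKO (adjusted p = 0.0228), each compared with WT. *Fgfr2* was the only member called in these tests, in which 2.50%, 2.82% and 1.24% of 14162 genes were called. *Malat1* in pre-osteoblast 1-like cells was 32409 to 46834 CPM in WT and 16872 to 27600 CPM in the other genotypes, and its part in these differences was not tested.

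*Fgf13* within macrophage-like cells had 8.90, 11.1 and 6.79 CPM in WT, 17.9, 6.46 and 12.4 in Fgf23cKO, 40.0 and 26.2 in Dmp1KO, and 9.02, 9.53 and 10.3 in Dmp1KO/Fgf23cKO. Both Dmp1KO cultures lay above all others. *Fgf13* rose by 1.80 ± 0.27 in Dmp1KO compared with WT (adjusted p = 2.75e-05) and fell by 1.77 ± 0.24 in Dmp1KO/Fgf23cKO compared with Dmp1KO (adjusted p = 3.92e-05), and both calls were kept in all 25 alternatives. In Fgf23cKO compared with WT *Fgf13* did not pass, but it did without Fgf23cKO replicate 2 (0.70, adjusted p = 0.0120) and with no filter on low counts (0.39, adjusted p = 0.01975). The size of the difference depended on which cells were compared. With the Dmp1KO-rich clusters joined to the class, *Fgf13* had 9.21, 11.1 and 8.66 CPM in WT, 19.9, 8.54 and 21.4 in Fgf23cKO, 204 and 186 in Dmp1KO, and 20.7, 14.6 and 21.7 in Dmp1KO/Fgf23cKO. The rise in Dmp1KO was then 4.55 ± 0.23 compared with WT (adjusted p = 1.07e-09), and smaller rises compared with WT were called in Fgf23cKO (0.76 ± 0.28, adjusted p = 0.0420) and Dmp1KO/Fgf23cKO (0.89 ± 0.26, adjusted p = 0.0121).

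Outside the stroma, and leaving aside shallow clusters led by mitochondrial or noncoding genes, 3 clusters held at least 10 cells of all 11 tagged cultures. In them *Fgf13* was higher in Dmp1KO than in WT by 0.94 ± 0.35 in cluster 3 (adjusted p = 0.0707), by 4.06 ± 0.30 in cycling cluster 10 (adjusted p = 1.48e-08) and by 1.95 ± 0.47 in cycling cluster 12 (adjusted p = 0.00451). In cluster 10 the Dmp1KO cultures had 174 and 202 CPM against 6.61 to 23.6 CPM in WT. In cluster 12 a WT culture with 72.6 CPM stood apart from the other two (2.71 and 3.50 CPM) but below both Dmp1KO cultures (107 and 84.7 CPM). The order was not the same in every cluster: in cluster 1 a WT culture had 48.8 CPM from 7 UMIs against 35.7 and 24.3 CPM in Dmp1KO, and in cluster 6 a Dmp1KO/Fgf23cKO culture had 125.5 CPM against 78.5 and 104.9 CPM in Dmp1KO. In clusters 3, 10 and 12, 24.5%, 43.3% and 32.9% of genes were called in Dmp1KO compared with WT, and over the joined macrophage-marker clusters 70.1%. In the joined clusters 49.6% of genes were called in Fgf23cKO and 55.3% in Dmp1KO/Fgf23cKO compared with WT, and 67.9% in Dmp1KO/Fgf23cKO compared with Dmp1KO. Thinned to 1300 UMIs, 18.02% of Dmp1KO cells of the Dmp1KO-rich clusters and 13.7% of Dmp1KO cycling-like cells had an *Fgf13* UMI, against 1.96% of WT cycling-like cells and 0.784% of WT macrophage-like cells. The shares of 18.02% and 0.784% are of different classes. Within macrophage-like cells the rise of *Fgf13* in Dmp1KO compared with WT was 3.49-fold.

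**Figure D3:**
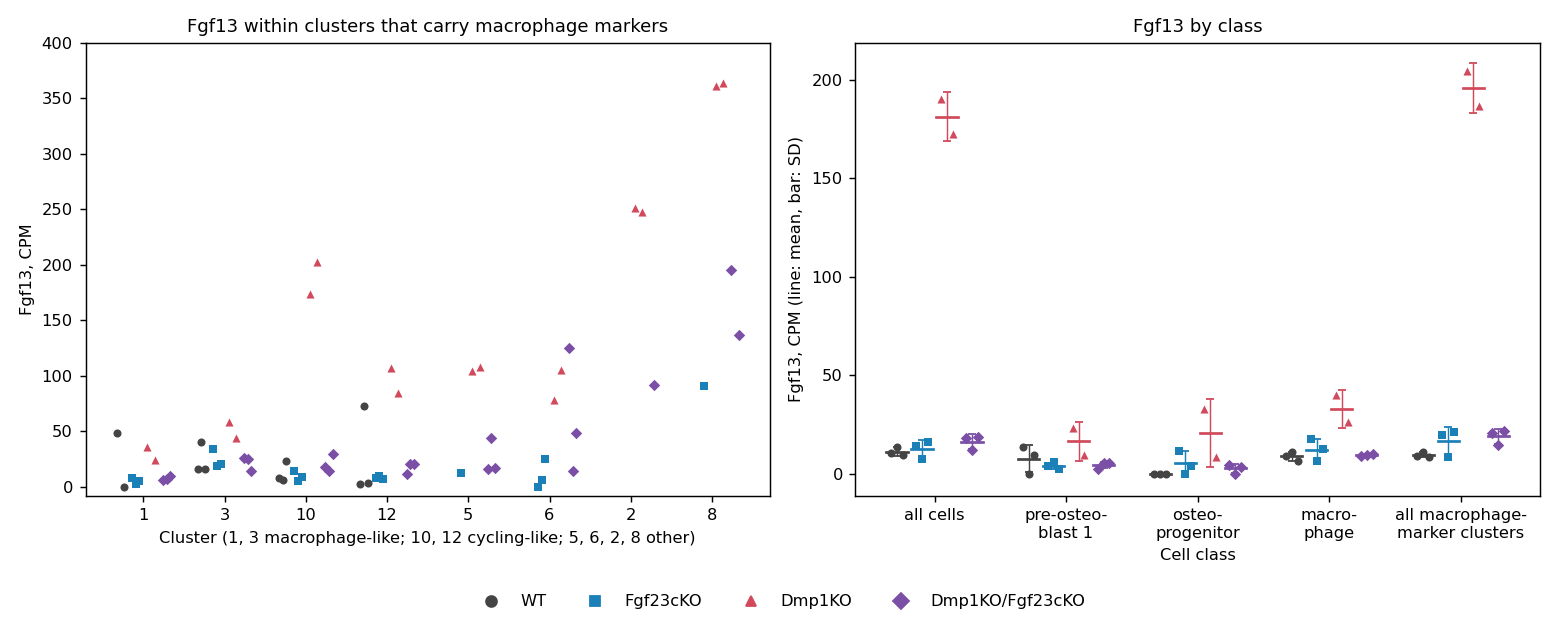
CPM of *Fgf13* in each tagged culture with at least 10 cells (points) by genotype, in single clusters that carry macrophage markers (left) and in cell classes (right, with lines for means and bars for SD). The Dmp1KO cultures sit highest over all cells (172 and 190.0 CPM), in macrophage-like cells (26.2 and 40.0 CPM) and in most single clusters, with a WT culture above them in cluster 1 and a Dmp1KO/Fgf23cKO culture above them in cluster 6.

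In the joined macrophage-marker clusters, summed levels of the osteoblast/osteocyte and osteoclast marker lists were also higher in Dmp1KO. The sums were not split by marker, so 1 gene of a list can carry a sum, and 1 UMI in a culture counted as detection. The summed level of the 12 osteoblast/osteocyte markers was 9489 to 11540 CPM in Dmp1KO and 1538 to 2365 CPM in the other genotypes, with at least 9 of 12 detected in every culture, and that of 7 osteoclast markers was 926.9 to 1044 CPM against 216.9 to 437.9 CPM. The osteoclast markers *Dcstamp* and *Atp6v0d2* were themselves among the leading genes of clusters 2 and 6. The 8 pre-osteoblast markers summed to only 51.14 to 55.94 CPM in Dmp1KO and 29.34 to 41.91 CPM in the other genotypes. In macrophage-like cells alone the osteoblast markers summed to 1622 to 1910 CPM in Dmp1KO and 1310 to 1834 CPM elsewhere. The part of RNA from other clusters in the *Fgf13* difference of macrophage-like cells was not tested. In cycling-like cells, which clusters 10 and 12 form, the same markers summed to 14500 to 17620 CPM in Dmp1KO and 749.5 to 1771 CPM in the other genotypes, with at least 8 of 12 detected in every culture, and their part in the *Fgf13* difference there was not tested. The stromal receptor *Fgfr1* also rose in the joined clusters, from 0.885, 1.39 and 2.92 CPM in WT to 8.80 and 6.39 CPM in Dmp1KO (2.26 ± 0.27, adjusted p = 4.27e-06), while in macrophage-like cells alone the difference was -0.16 ± 0.43 (adjusted p = 0.797). Within cluster 2, *Fgfr1* had 15.8 and 14.1 CPM in Dmp1KO and 13.7 CPM in a Dmp1KO/Fgf23cKO culture, and within cluster 6 it had 11.2 and 8.15 CPM in Dmp1KO, 7.67 to 16.4 CPM in Fgf23cKO and 4.29 to 9.16 CPM in Dmp1KO/Fgf23cKO. Of the cells of these clusters 95.6% and 81.5% are Dmp1KO, and the part of these shares in the *Fgfr1* difference was not tested. *Fgf7*, at 0.547 to 2.26 CPM in macrophage-like cells, was 1.21 ± 0.40 higher in Dmp1KO/Fgf23cKO than in Dmp1KO (adjusted p = 0.0446), which was lost without Dmp1KO replicate 2 (0.90, adjusted p = 0.276) or Dmp1KO/Fgf23cKO replicate 1 (1.14, adjusted p = 0.111).

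The other members were compared in pre-osteoblast 1-like cells. In this class 0 of 7 tested members were called in Dmp1KO compared with WT (11.9% of 11692 genes), where 2 of them, *Fgfr1* and *Fgfrl1*, had an unadjusted p under 0.05 (0.0293 and 0.0461, edgeR; DESeq2 called 0), and 2 were called in Fgf23cKO (11.6% of genes) and 2 in Dmp1KO/Fgf23cKO (15.9%) compared with WT. In Dmp1KO/Fgf23cKO compared with Dmp1KO only *Fgfr2* was called (1.01% of genes). *Fgfr1* had 329.6, 299.6 and 338 CPM in WT, 530.5, 431 and 425 in Fgf23cKO, 410.1 and 431 in Dmp1KO, and 387, 429.8 and 306 in Dmp1KO/Fgf23cKO. The Fgf23cKO cultures lay above the WT cultures, and *Fgfr1* rose by 0.55 ± 0.15 (adjusted p = 0.0441), but this call was lost without Fgf23cKO replicate 1 (0.45, adjusted p = 0.133), WT replicate 1 (0.56, adjusted p = 0.115) or WT replicate 2 (0.49, adjusted p = 0.126), and the difference was -0.09 (adjusted p = 0.961) when cells were thinned to 1300 UMIs. Both Dmp1KO cultures also lay above WT, with a difference of 0.40 ± 0.16 that did not pass (adjusted p = 0.164).

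*Fgf7* had 186, 284 and 215 CPM in pre-osteoblast 1-like cells of WT, 242, 290.3 and 321 in Fgf23cKO, 249 and 284 in Dmp1KO, and 332, 396 and 316 in Dmp1KO/Fgf23cKO. The Dmp1KO/Fgf23cKO cultures lay above WT and Dmp1KO. *Fgf7* rose by 0.62 ± 0.16 in Dmp1KO/Fgf23cKO compared with WT (adjusted p = 0.0333), a call lost without WT replicate 1 (0.49, adjusted p = 0.132) or Dmp1KO/Fgf23cKO replicate 2 (0.52, adjusted p = 0.113) and when cells were thinned (0.21, adjusted p = 0.777). In osteoblast/osteocyte-like cells, *Fgf7* had 51.1, 30.3 and 22.4 CPM in WT and 131, 98.5 and 65.9 CPM in Dmp1KO/Fgf23cKO, without overlap, and rose by 1.496 ± 0.31 (adjusted p = 0.0129), the 1 call among 5 tested members against 14.5% of 8556 genes. This call was lost with sums of at least 3 cells (1.48, adjusted p = 0.294). This class could be compared only between these genotypes, because the Dmp1KO cultures held 2 and 8 of its cells. The difference over all cells was 1.54, against 0.62 within pre-osteoblast 1-like and 1.496 within osteoblast/osteocyte-like cells. Pre-osteoblast 1-like cells gave 2.35 to 7.78% of UMIs in WT and 9.60 to 11.9% in Dmp1KO/Fgf23cKO. The part of these shares in the difference over all cells was not tested.

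*Fgfr3* had 18.9, 34.2 and 35.7 CPM in pre-osteoblast 1-like cells of WT, 20.2, 15.4 and 10.4 in Fgf23cKO, 24.1 and 16.4 in Dmp1KO, and 26.9, 32.8 and 32.4 in Dmp1KO/Fgf23cKO. The Dmp1KO/Fgf23cKO cultures lay above those of Dmp1KO and Fgf23cKO and within the WT range, and the other groups overlapped. No comparison passed, with differences from -0.86 ± 0.31 (Fgf23cKO compared with WT, adjusted p = 0.116) to 0.58 ± 0.29 (Dmp1KO/Fgf23cKO compared with Dmp1KO, adjusted p = 0.387). The first passed without Fgf23cKO replicate 1 (-1.12, adjusted p = 0.0849) or WT replicate 1 (-1.13, adjusted p = 0.0727). *Fgfrl1* had 35.1, 28.9 and 21.6 CPM in WT, 17.1, 25.5 and 10.4 in Fgf23cKO, 10.6 and 19.4 in Dmp1KO, and 20.4, 27.5 and 21.7 in Dmp1KO/Fgf23cKO. Both Dmp1KO cultures lay below WT, and the difference of -0.86 ± 0.39 did not pass (adjusted p = 0.208). *Fgf2* had 52.7, 15.8 and 21.6 CPM in WT, 47.1, 67.5 and 55.3 in Fgf23cKO, 20.5 and 25.2 in Dmp1KO, and 40.8, 52.5 and 37.5 in Dmp1KO/Fgf23cKO. A single WT culture reached the Fgf23cKO range, and the difference of 0.88 ± 0.32 did not pass (adjusted p = 0.121). Without that culture, replicate 1, it was 1.54 in Fgf23cKO (adjusted p = 0.0271) and 1.12 in Dmp1KO/Fgf23cKO (adjusted p = 0.0579). *Fgf13*, at 0 to 23.5 CPM in this class, had no called difference. Its largest was -1.89 ± 0.59 in Dmp1KO/Fgf23cKO compared with Dmp1KO (adjusted p = 0.190), which passed with no filter on low counts (-1.87, adjusted p = 0.00253), with sums of at least 20 cells (-1.89, adjusted p = 0.0919) and with the untagged samples included (-2.79, adjusted p = 0.0177). With the untagged samples Dmp1KO compared with WT also passed (1.78, adjusted p = 0.0815).

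**Figure D4:**
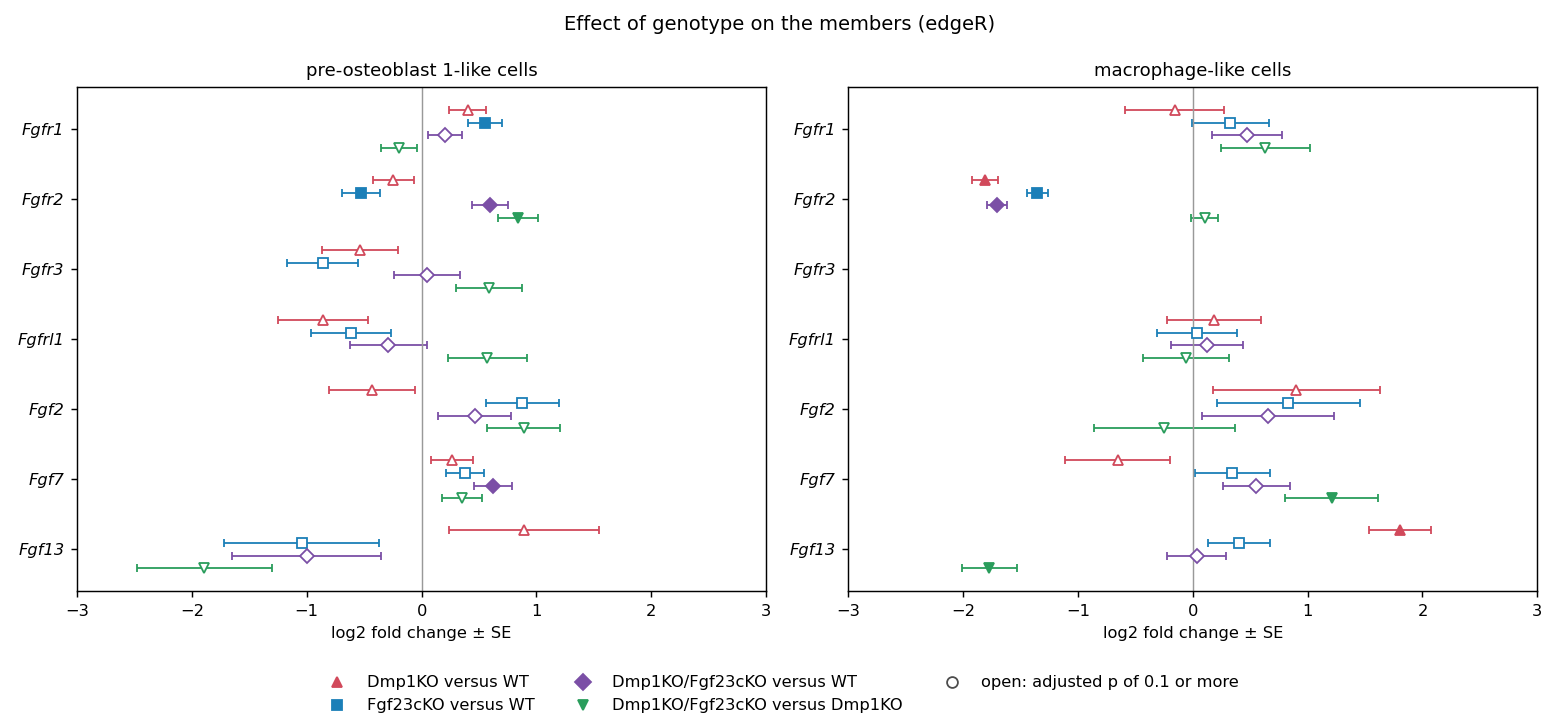
Log2 fold changes of the tested members (points, bars show ± 1 SE from edgeR) in pre-osteoblast 1-like (left) and macrophage-like cells (right) for the 4 comparisons, with filled points for an adjusted p under 0.1. In macrophage-like cells *Fgf13* is higher in Dmp1KO than in WT (1.80), and *Fgfr2* is lower than in WT in macrophage-like cells of all 3 other genotypes.

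In osteoprogenitor-like cells 4 members passed the filter on low counts, and *Fgfr2* was the 1 member called in each comparison with WT: 12.5% of 4909 genes were called in Dmp1KO, 17.5% in Fgf23cKO and 23.6% in Dmp1KO/Fgf23cKO. *Fgfr2* had 41.4, 116 and 142 CPM in WT, 14.9, 0 and 21.1 in Fgf23cKO, 13.2 and 14.1 in Dmp1KO, and 9.52, 8.23 and 21.5 in Dmp1KO/Fgf23cKO. The WT cultures lay above all others, and *Fgfr2* fell by 2.45 ± 0.73 in Dmp1KO (adjusted p = 0.0533), by 2.43 ± 0.68 in Fgf23cKO (adjusted p = 0.0320) and by 2.45 ± 0.65 in Dmp1KO/Fgf23cKO (adjusted p = 0.0176). These values rest on 4, 8 and 17 UMIs in WT and 0 to 6 UMIs in any other culture, and without WT replicate 3 none of the 3 calls was kept (-2.05, -2.02 and -2.02, adjusted p = 0.223, 0.165 and 0.133). The Dmp1KO call was also lost without WT replicate 2 (-2.40, adjusted p = 0.118) and without Dmp1KO replicate 2 (-2.20, adjusted p = 0.207) or 3 (-2.52, adjusted p = 0.282). *Malat1* in these cells was 16781 to 25510 CPM in WT and 231 to 3728 CPM in the other genotypes, and the 12 macrophage markers summed to 5909 to 17300 CPM in WT and 2077 to 11610 CPM in the others. Their part in the *Fgfr2* difference was not tested.

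*Fgfr1* in osteoprogenitor-like cells had 31.1, 43.4 and 92.0 CPM in WT, 190.2, 50.2 and 80.4 in Fgf23cKO, 39.5 and 19.8 in Dmp1KO, and 59.5, 57.6 and 60.8 in Dmp1KO/Fgf23cKO. The Dmp1KO cultures lay below those of Fgf23cKO and Dmp1KO/Fgf23cKO, and the other groups overlapped. No comparison passed, although Fgf23cKO compared with WT (1.31, adjusted p = 0.113) passed without any 1 of Dmp1KO replicate 2, Fgf23cKO replicate 2 or 3 and WT replicate 3 (1.43 to 1.98, adjusted p = 0.0599 to 0.0872). *Fgf2* had 41.4, 28.9 and 92.0 CPM in WT, 26.8, 30.1 and 25.4 in Fgf23cKO, 79.1 and 62.2 in Dmp1KO, and 47.6, 85.1 and 42.9 in Dmp1KO/Fgf23cKO, with no call. Its Fgf23cKO cultures lay below those of Dmp1KO and Dmp1KO/Fgf23cKO, and the other groups overlapped. *Fgf7* had 31.1, 0 and 151 CPM in WT and 3.58 to 39.5 CPM in the other genotypes, and did not pass, although Dmp1KO/Fgf23cKO compared with WT did without WT replicate 2 (-2.34, adjusted p = 0.0528). In Dmp1KO/Fgf23cKO compared with Dmp1KO, 0 of the 4 members were called by edgeR in this class against 1.98% of genes, with 0 at an unadjusted p under 0.05 and 0 called by DESeq2.

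*Fgf18* had 0.105, 0 and 0.0609 CPM over all cells of the WT cultures, 0, 0 and 0.298 in Fgf23cKO, 0 and 0.0159 in Dmp1KO, and 0.0284, 0.0641 and 0.356 in Dmp1KO/Fgf23cKO. The groups overlapped except Dmp1KO/Fgf23cKO and Dmp1KO. In exact two-sided permutation tests the p was 0.6 for Dmp1KO, 1 for Fgf23cKO and 0.6 for Dmp1KO/Fgf23cKO, each compared with WT, and 0.2 for Dmp1KO/Fgf23cKO compared with Dmp1KO. The smallest p these designs allow is 0.1 for 3 against 3 cultures and 0.2 for 2 against 3, so a difference in *Fgf18* was not detectable at this depth and number of cultures.

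The difference between the effects of the *Fgf23* deletion on the *Dmp1*-deficient and the *Dmp1*-intact background was tested in the same fits. The effect was Dmp1KO/Fgf23cKO compared with Dmp1KO less Fgf23cKO compared with WT. Over all cells this difference was 1.64 ± 0.10 for *Fgfr2* (adjusted p = 2.42e-06), 2.55 ± 0.64 for *Fgfr3* (adjusted p = 0.00794), 1.1998 ± 0.48 for *Fgfrl1* (adjusted p = 0.0607) and -3.95 ± 0.39 for *Fgf13* (adjusted p = 2.20e-05), against 55.4% of genes called. *Fgf7*, *Fgf2* and *Fgfr1* had no called difference, at 0.58 ± 0.38, 0.09 ± 0.39 and 0.36 ± 0.59. In pre-osteoblast 1-like cells *Fgfr2* (1.37 ± 0.24, adjusted p = 0.0177), *Fgfr3* (1.45 ± 0.42, adjusted p = 0.0883) and *Fgfr1* (-0.75 ± 0.22, adjusted p = 0.0838) were called against 5.91% of genes. *Fgfr2* in that class was lower with the deletion on the intact background and higher with it on the *Dmp1*-deficient background. In macrophage-like cells *Fgfr2* (1.46 ± 0.15, adjusted p = 9.69e-07) and *Fgf13* (-2.17 ± 0.36, adjusted p = 1.80e-04) were called against 37.1% of genes.

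Other genes of the pathway were taken from 4 lists. Of 23 other FGF family genes, 5 passed the filter in pre-osteoblast 1-like cells, and *Fgf10*, a mesenchymal ligand of the same receptor form as FGF7, was called in Dmp1KO and in Dmp1KO/Fgf23cKO compared with WT. It had 27 UMIs in WT, 31 in Fgf23cKO, 0 in Dmp1KO and 1 in Dmp1KO/Fgf23cKO, so it was at least 17.963-fold lower in Dmp1KO than in WT with a floor of 3 UMIs over the group, although a WT culture also had 0. In osteoblast/osteocyte-like cells *Fgf1* rose in Dmp1KO/Fgf23cKO compared with WT (1.65 ± 0.55, adjusted p = 0.0880). None of the other family genes passed the filter in osteoprogenitor-like cells.

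Among 17 heparan sulfate proteoglycans and surface partners of the receptors, 12 were tested in pre-osteoblast 1-like cells: 2 were higher and 3 lower in Dmp1KO, 4 higher and 3 lower in Fgf23cKO, and 5 higher and 3 lower in Dmp1KO/Fgf23cKO, each compared with WT, with list medians of 0.02, 0.11 and 0.26. Over all genes tested in this class, 11.9%, 11.6% and 15.9% were called in these comparisons. The syndecans *Sdc4* (-1.47 ± 0.21, adjusted p = 0.00299) and *Sdc3* (-0.99 ± 0.17, adjusted p = 0.00666) fell in Dmp1KO, and *Sdc4* was 0.95 ± 0.20 higher in Dmp1KO/Fgf23cKO than in Dmp1KO (adjusted p = 0.0781). *Flrt2*, an adhesion protein that binds FGF receptors, rose in Fgf23cKO (1.30 ± 0.28, adjusted p = 0.0188) and in Dmp1KO/Fgf23cKO (1.31 ± 0.28, adjusted p = 0.0125). Its relative *Flrt3* had 0 UMIs in WT and 38, 34 and 25 in Dmp1KO, Fgf23cKO and Dmp1KO/Fgf23cKO, at least 6.35-fold, 3.87-fold and 1.91-fold higher. N-cadherin, *Cdh2*, fell in Fgf23cKO (-0.50 ± 0.11, adjusted p = 0.0189) and Dmp1KO/Fgf23cKO (-0.61 ± 0.11, adjusted p = 0.00529). The glypican *Gpc1* rose in Dmp1KO/Fgf23cKO (0.53 ± 0.13, adjusted p = 0.0210).

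Of 20 genes that relay the signal, 19 were tested in pre-osteoblast 1-like cells, and 2 rose and 0 fell in Dmp1KO, 2 rose and 1 fell in Fgf23cKO, and 2 rose and 2 fell in Dmp1KO/Fgf23cKO compared with WT, with list medians of -0.17, -0.01 and -0.11, against the same 11.9%, 11.6% and 15.9% of all genes. *Hras* rose in all 3 comparisons (1.04 ± 0.25, 0.97 ± 0.23 and 0.93 ± 0.23, adjusted p = 0.0280, 0.0305 and 0.0253), which share the WT cultures. Of 13 feedback genes and ERK targets, 12 were tested: 0 rose and 3 fell in Dmp1KO, 1 rose and 0 fell in Fgf23cKO, and 1 rose and 1 fell in Dmp1KO/Fgf23cKO, with list medians of -0.43, 0.11 and 0.05, against these same shares. The transcription factor *Etv1* (-1.73 ± 0.37, adjusted p = 0.0162) and the inhibitors *Spry2* (-2.37 ± 0.60, adjusted p = 0.0323) and *Spry1* (-1.46 ± 0.44, adjusted p = 0.0631) fell in Dmp1KO. The ERK phosphatase *Dusp6* rose in Fgf23cKO (1.16 ± 0.32, adjusted p = 0.0508). *Etv1* fell also in Dmp1KO/Fgf23cKO (-1.32 ± 0.31, adjusted p = 0.0206), where *Spred3* rose (1.68 ± 0.58, adjusted p = 0.0907).

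In osteoprogenitor-like cells the relay list had 17 tested genes, of which 3 rose and 1 fell in Dmp1KO, 3 rose and 2 fell in Fgf23cKO, and 4 rose and 3 fell in Dmp1KO/Fgf23cKO compared with WT, against 12.5%, 17.5% and 23.6% of all genes. *Hras* rose in each (1.79 ± 0.43, 1.81 ± 0.41 and 1.59 ± 0.41). Of the 4 feedback genes tested, *Cbl* and *Dusp6* fell in Fgf23cKO (-2.63 ± 0.58 and -2.36 ± 0.82) and Dmp1KO/Fgf23cKO (-1.83 ± 0.51 and -1.87 ± 0.73). These rest on few UMIs: 39 of *Cbl* and 20 of *Dusp6* in WT, 12 and 7 in Fgf23cKO, and 30 and 15 in Dmp1KO/Fgf23cKO. The part of the *Malat1* difference of this class in them was not tested. In osteoblast/osteocyte-like cells *Spry1* rose (1.54 ± 0.36, adjusted p = 0.0222) and *Dusp6* fell (-1.36 ± 0.36, adjusted p = 0.0370) in Dmp1KO/Fgf23cKO compared with WT.

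The genes with the level most similar to that of each member over 63 class and culture sums of 7 classes were found by Pearson correlation of log2(CPM + 1), as a description, since the sums of a culture share a library. For *Fgfr1* these were *Sytl2* (r = 0.97) and *Ptprd* (0.96), and for *Fgf7* *Thsd4* and *Twist1* (both 0.96). *Fgf2* was most like *S100b* and *Cnn1* (both 0.96), and *Fgfrl1* most like *Mark1* (0.90) and *Casp12* (0.89). The gene most like *Fgfr3* was *Dnm3os* (0.96). *Fgfr2* was most like *N4bp2l2* (0.88) and *Ehmt1* (0.87), and *Fgf13* most like *Npy* and *Dhrs9* (both 0.81). *Fgf18*, which did not pass the filter, was most like *Tspan8* (0.74) and *Pard3bos3* (0.58).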

How the data were processed

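Single cells of 16 cultures or cell pools were measured by 3′ RNA-Seq, and 15 samples were used. The authors deposited whole-number UMI counts for each cell and gene, made with Cell Ranger on mm10 per the labels. All deposited cells, with no further filter, were clustered with Seurat 5.3.0 and sctransform 0.4.2 (30 components, resolution 0.8, 2993 variable genes after 7 FGF family genes were removed) and named from marker lists. No doublet caller was run. For each class, the cells of a tagged culture (10 or more) were added into 1 sum and tested with edgeR 4.0.16 (TMM, quasi-likelihood, all genotypes in 1 fit), with Benjamini-Hochberg adjustment over all genes tested and a threshold of 0.1. Exact intervals are Clopper-Pearson (95%). Intervals and floors (3 counts) cover counting error only. Alternatives were DESeq2 1.42.0, other size factors, no filter on low counts, a filter on cells (at least 500 genes, under 20% mitochondrial UMIs), other clusterings and cell minimums, cells thinned to 1300 UMIs, untagged samples, a replicate block and leaving out each culture. Single clusters, the joined macrophage-marker clusters and the differences between effects were added after seeing the data. The scripts were tested on simulated data.

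The members and lists were chosen with earlier results of these data known. For each member the 2 genes most like it are named, and of the pathway lists those called in a stromal class are named, at most 3 per list, class and comparison by smallest p. Some genes that this rule names are not reported here. The labels do not say that the 3 cultures of a genotype came from separate mice, so p-values measure the spread between these cultures.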

Additional observations from a re-analysis of the deposited data

Results flagged for a closer look

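The results below are differences between effects that passed the test of the difference itself (edgeR, adjusted p under 0.1), a test added after seeing the data. Groups held 2 or 3 cultures, too few to test for a culture that stands apart. These tests were not repeated under the alternatives.

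The effect of genotype on *Fgfr2* differed between pre-osteoblast 1-like and macrophage-like cells by 1.61 in Dmp1KO (adjusted p = 1.12e-04), by 2.28 in Dmp1KO/Fgf23cKO (adjusted p = 4.74e-07) and by 0.85 in Fgf23cKO (adjusted p = 0.0228), each compared with WT and with the higher value in pre-osteoblast 1-like cells. Of all genes tested, 2.50%, 2.82% and 1.24% were called in these tests.

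The effect of the *Fgf23* deletion differed between the *Dmp1*-deficient and the *Dmp1*-intact background over all cells for *Fgfr3* (2.55, adjusted p = 0.00794), *Fgfrl1* (1.2, adjusted p = 0.0607), *Fgfr2* (1.64, adjusted p = 2.42e-06) and *Fgf13* (-3.95, adjusted p = 2.20e-05). In pre-osteoblast 1-like cells it differed for *Fgfr3* (1.45, adjusted p = 0.0883), *Fgfr2* (1.37, adjusted p = 0.0177) and *Fgfr1* (-0.75, adjusted p = 0.0838). In macrophage-like cells it differed for *Fgfr2* (1.46, adjusted p = 9.69e-07) and *Fgf13* (-2.17, adjusted p = 1.80e-04). Of all genes tested, 55.4% were called over all cells, 5.91% in pre-osteoblast 1-like and 37.1% in macrophage-like cells. With shares this large over all cells and in macrophage-like cells, a call there says little of a member.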

How the results depend on the processing

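Over all cells, 5 members were called in Dmp1KO, 3 in Fgf23cKO and 3 in Dmp1KO/Fgf23cKO compared with WT, and 7 in Dmp1KO/Fgf23cKO compared with Dmp1KO. Each count is of 7 tested members, and 64.5%, 45.1%, 51.8% and 62.7% of all genes were called. With cells thinned to 1300 UMIs the counts were 2, 1, 3 and 3. Leaving out a culture gave 3 to 7, 3 to 4, 2 to 4 and 5 to 7. Over the cell classes, the counts in the same order were 3, 4, 5 and 3. Tested members were 4 in osteoprogenitor-like, 7 in pre-osteoblast 1-like and 6 in macrophage-like cells. The third count also includes 5 tested in osteoblast/osteocyte-like cells. By class, the share of all genes called was 11.9 to 51.0%, 11.6 to 49.0%, 14.5 to 58.1% and 1.01 to 24.1%. Joining the macrophage-marker clusters gave 5 and including the untagged samples 7 in Dmp1KO. In Fgf23cKO the counts were 1 when thinned, 9 with no filter on low counts, 1 with sums of at least 20 cells and 9 with the untagged samples. In Dmp1KO/Fgf23cKO compared with WT they were 1 when thinned, 9 at resolution 0.4 and 3 with at least 20 cells, and compared with Dmp1KO 1 when thinned and 5 with no filter. Leaving out a culture gave 2 to 3, 2 to 6, 4 to 6 and 1 to 3. Apart from the joined clusters, the share of all genes called was not counted under these alternatives. The shifts can therefore not be read as particular to the members. The cause was not tested.

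Directions reversed for *Fgfr1* in macrophage-like cells when the macrophage-marker clusters were joined (2.26 in Dmp1KO compared with WT, -1.68 in Dmp1KO/Fgf23cKO compared with Dmp1KO), for *Fgfr1* in pre-osteoblast 1-like cells of Fgf23cKO when thinned (-0.085), and for *Fgf18* when replicate 3 was left out (differences of -0.0091 CPM in Dmp1KO/Fgf23cKO and -0.055 CPM in Fgf23cKO compared with WT). Without 1 culture the *Fgf18* differences were -0.075 to -0.023 CPM in Dmp1KO, -0.055 to 0.094 in Fgf23cKO and -0.0091 to 0.155 in Dmp1KO/Fgf23cKO compared with WT, and 0.038 to 0.202 in Dmp1KO/Fgf23cKO compared with Dmp1KO. 

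Deviations of same-numbered cultures from their group means had r = -0.27 to 0.27 over 15 pairs, 4 of them over 0.1. Over 30 pairs of different numbers r was -0.32 to 0.31, 13 of them over 0.1. Deviations from a mean of 2 or 3 cultures are tied to each other. These values can therefore not settle whether same-numbered cultures share more than a number. With the number as a replicate block the counts were 5, 3, 3 and 7 over all cells and 3, 3, 5 and 2 over the classes, and the *Fgfr2* calls in pre-osteoblast 1-like cells of Dmp1KO/Fgf23cKO compared with Dmp1KO (0.88, adjusted p = 0.122) and of Fgf23cKO compared with WT (-0.51, adjusted p = 0.121) were lost. 

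Low depth limits *Fgf18* everywhere and every member in osteoprogenitor-like cells. WT cells were the shallowest, and 1 reaction per genotype and 2 Dmp1KO cultures limit each comparison.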
